A study of Mus musculus with 8 samples.

Results

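The interleukin-1 family and inflammasome genes examined here were the 10 genes with the symbols Il1a, Il1b, Il18, Il1rn, Il1r2, Il1rap, Nlrp3, Pycard, Casp1 and Casp4, out of 24421 genes in the count table. They were chosen by symbol, with earlier results of these data known, so their values are given as a description. All 10 passed the filter on low values, 1 count in 2 or more libraries, and were tested among 12254 genes. The RNA came from bone marrow neutrophils of 8-week-old female C57BL/6 mice, either WT or carrying a germline deletion of exon 1 of Padi4 (Padi4 KO), the gene of peptidylarginine deiminase 4, an enzyme that turns arginine in proteins into citrulline. The neutrophils were isolated magnetically and were left unstimulated (Nostim) or given 1 µg/ml of R848, a small-molecule agonist of TLR7, and cultured for 6 h. Each of the 4 groups, WT Nostim, WT R848, Padi4 KO Nostim and Padi4 KO R848, had 2 libraries. The labels of the Nostim libraries give 0 h and the methods give 6 h of culture, and if the labels are right, each response to R848 also holds what 6 h of culture does. The methods state duplicates, and nothing states that the 2 libraries of a group came from separate mice, so the p-values measure only the spread between these libraries, which may be technical.

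IL-1α and IL-1β are ligands of the same receptor, which signals once the accessory chain encoded by Il1rap has joined it. The receptor antagonist encoded by Il1rn and the decoy receptor encoded by Il1r2 both hold this signal back. IL-1β and IL-18 are made as inactive precursors, and inflammasomes are the protein platforms on which they are usually cut: a sensor such as NLRP3 recruits the adaptor ASC, the product of Pycard, which in turn gathers caspase-1. Caspase-11, the product of mouse Casp4, responds to bacterial lipopolysaccharide in the cytosol and cuts gasdermin D, which then forms pores in the membrane. In neutrophils and macrophages, transcription of Il1b and Nlrp3 is a known early response to Toll-like receptor ligands, and neutrophil serine proteases can also process IL-1 cytokines outside the inflammasome.

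The libraries held between 562446 and 1177972 counts on genes, and 3 counts, used as the floor of detection, were 2.55 to 5.33 counts scaled per library total (CPM). Padi4 itself had 166 to 590 counts in the 4 WT libraries and 21 to 54 counts in the 4 Padi4 KO libraries. The summed level of 11 neutrophil marker genes (among them S100a8, S100a9, Ly6g and Csf3r) was 151846 to 165758 CPM of the library total in WT and 123095 to 132007 CPM in Padi4 KO. The libraries thus carried the markers of the labelled cell type, at a lower summed level in each Padi4 KO library than in any WT library. In bulk RNA, fewer cells of a type and less RNA per cell cannot be told apart. Summed monocyte and macrophage markers, all 14 with counts, were 1543 to 1658 CPM in WT Nostim, 2304 to 2320 CPM in Padi4 KO Nostim, 3417 to 3557 CPM in WT R848 and 3657 to 3756 CPM in Padi4 KO R848. Lymphocyte markers summed to at most 46.8 CPM, and those of eosinophils, basophils and mast cells to at most 56.2 CPM.

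The genes that rose with R848 in both genotypes and had over 10 counts per library at rest were Il1b, Il1rn, Nlrp3 and Casp4. The sequences upstream of these 4 start sites are shown because the genes moved together with R848. They are RefSeq sequences of build GRCm38.p6, up to 250 bases before the RefSeq start without the bases that GENCODE places inside the gene, 5′ to 3′ on the strand of the gene. Capitals mark matches to the motifs described below them.
Il1b, chr2:129371140-129371389, minus strand: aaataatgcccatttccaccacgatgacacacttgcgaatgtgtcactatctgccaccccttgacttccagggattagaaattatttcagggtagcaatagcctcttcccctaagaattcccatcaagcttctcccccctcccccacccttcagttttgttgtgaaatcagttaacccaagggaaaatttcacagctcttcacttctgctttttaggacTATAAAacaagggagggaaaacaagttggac
Il1rn, chr2:24336610-24336852, plus strand: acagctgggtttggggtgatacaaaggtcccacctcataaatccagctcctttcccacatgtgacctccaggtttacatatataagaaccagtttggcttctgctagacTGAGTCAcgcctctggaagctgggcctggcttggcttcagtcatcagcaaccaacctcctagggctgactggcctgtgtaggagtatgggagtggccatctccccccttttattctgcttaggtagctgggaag
Nlrp3, chr11:59541319-59541567, plus strand: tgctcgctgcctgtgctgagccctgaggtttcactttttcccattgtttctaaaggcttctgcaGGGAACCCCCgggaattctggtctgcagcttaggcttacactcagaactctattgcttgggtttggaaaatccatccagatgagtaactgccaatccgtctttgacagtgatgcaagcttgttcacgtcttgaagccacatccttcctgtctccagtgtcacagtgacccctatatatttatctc
Casp4, chr9:5308599-5308827, plus strand: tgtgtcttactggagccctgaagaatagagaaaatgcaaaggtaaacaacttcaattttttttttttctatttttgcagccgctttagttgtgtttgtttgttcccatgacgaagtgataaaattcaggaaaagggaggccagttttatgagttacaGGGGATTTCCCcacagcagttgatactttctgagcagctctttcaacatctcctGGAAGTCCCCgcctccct

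All 10 genes matched the RefSeq table of promoters, and 5 motifs were searched on both strands in the 250 bases before each start and in 32817 such windows of the genome. The motif of the TATA box, TATAAA, was present in 12.4% of all windows and in those of Il1a, Il1b and Il18. It began 32 bases before the start site in Il1a and 31 bases before it in Il1b. The match in Il18 was on the opposite strand, from 175 bases before the start site. The AP-1 motif TGANTCA was present in 6.75% of all windows and in those of Il1a and Il1rn. The NF-kB consensus was present in 7.25% of all windows and in those of Nlrp3 and Casp4, and Casp4 held 3 matches, of which 2 overlap. The PU.1 motif GAGGAA (23.3% of all windows) matched in Il1a, Pycard and Casp1, and the C/EBP motif TTGCNNAA (9.57%) in Pycard alone of the 10. These matches are descriptions of the letters in these windows.

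Il1b, the gene of the IL-1β precursor, reached the highest level of these genes after R848 in both genotypes, and its response differed between them. In GRCm38, GENCODE places Il1b on chromosome 2, minus strand, from 129364570 to 129371139. It had 54 and 47 counts in the WT Nostim libraries and 2790 and 2723 counts in the WT R848 libraries. In Padi4 KO it had 253 and 351 counts without stimulation and 3551 and 3106 counts after R848. Every R848 library was thus far above every Nostim library, and the 4 groups did not overlap once the counts were scaled. The scaled levels were 82.3 CPM ± 1.65 (SD, n = 2) in WT Nostim, 270 CPM ± 22.2 (SD, n = 2) in Padi4 KO Nostim, 5254 CPM ± 612 (SD, n = 2) in WT R848 and 3005 CPM ± 212 (SD, n = 2) in Padi4 KO R848. As a share of all reads on genes, Il1b took 0.00836% and 0.00842% in WT Nostim (Wilson 95% intervals within 0.00628% to 0.0111%) and 0.407% and 0.457% in WT R848 (within 0.392% to 0.475%). The shares in Padi4 KO were 0.0318% and 0.0353% without stimulation (within 0.0287% to 0.0399%) and 0.274% and 0.301% after R848 (within 0.264% to 0.312%). These intervals cover counting error only.

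The log2 change of Il1b with R848 was 5.99 (SE 0.11) in WT, a 63.6-fold rise, and 3.48 (SE 0.081) in Padi4 KO, an 11.2-fold rise. Without stimulation Padi4 KO stood 3.25-fold above WT (log2 1.70, SE 0.14, adjusted p = 1.04e-31, edgeR quasi-likelihood test with Benjamini-Hochberg adjustment, as for all adjusted p-values given here). After R848 the order was turned, and Padi4 KO stood 1.75-fold below WT (log2 -0.80, SE 0.066, adjusted p = 4.34e-31). The difference of the responses was log2 -2.51 (SE 0.15, adjusted p = 4.02e-57), so the fold rise was 5.68 times smaller in Padi4 KO. Of the difference of 2.51 on the log2 scale, the higher level at rest made up 1.70 and the lower level after R848 made up 0.80. This split depends on the scaling, with 1.99 and -0.59 for Padi4 KO minus WT at rest and after R848 under library size alone, and 2.31 and -0.23 relative to the summed neutrophil markers of the same library. The higher resting level of Il1b went along with the higher monocyte and macrophage markers of Padi4 KO Nostim, of which 6 of 14 were higher and 1 was lower, where 9.55% of all tested genes were higher and 14.4% lower. After R848, when Il1b was lower in Padi4 KO, 5 of the 14 markers were higher and 1 was lower, where 9.46% of all tested genes were higher and 7.81% lower. Erythroid markers, 12 of 18 with counts and 6 hemoglobin genes at 0, summed to 149 to 172 CPM in WT Nostim and 1600 to 1646 CPM in Padi4 KO Nostim, and stromal and endothelial markers to 229 to 271 CPM and 624 to 779 CPM. After R848 the erythroid sums were 32.9 to 63.9 CPM in WT and 1701 to 1751 CPM in Padi4 KO, with 12 of 12 tested erythroid markers higher in Padi4 KO and 8 of 12 with a higher response, where 9.46% and 3.45% of all tested genes were so. The stromal and endothelial sums after R848 were 35.9 to 41.0 CPM and 52.6 to 56.4 CPM. Their part in the result was not tested.

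**Figure D1:**
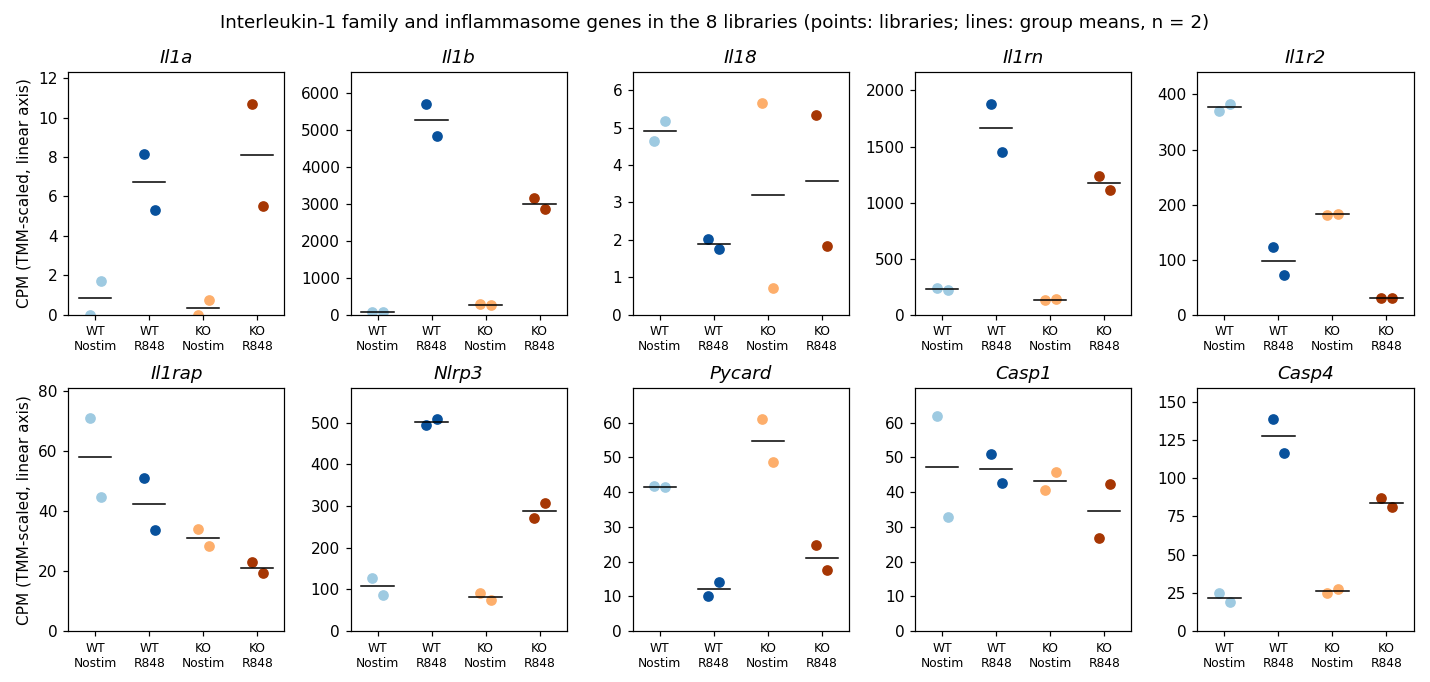
CPM of each of the 10 genes in each of the 8 libraries, by group, with 1 panel per gene and a linear axis from 0. Each point is a library and each line a group mean, n = 2 per group. Il1b sits between 81.1 and 83.5 CPM in WT Nostim and between 255 and 286 CPM in Padi4 KO Nostim, and between 4821 and 5686 CPM in WT R848 and 2855 and 3155 CPM in Padi4 KO R848.

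Reads on Il1b could in part belong to Il1bos, an antisense RNA annotated on the opposite strand of the same locus, because the library kit does not mark strand. Il1bos had 1 or 2 counts in each Nostim library and 22 to 32 counts in the R848 libraries, far fewer than Il1b in the same libraries. Its log2 change with R848 was 4.36 (SE 0.55) in WT and 4.57 (SE 0.60) in Padi4 KO. Il1bos was named after its values were seen.

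Of the other ligands, Il1a rose from almost nothing and Il18 was near the floor throughout. Il1a, the alarmin IL-1α, lies next to Il1b on the minus strand of chromosome 2, from 129299610 to 129309972. It had 0 and 1 counts in WT Nostim, 4 and 3 in WT R848, 0 and 1 in Padi4 KO Nostim and 12 and 6 in Padi4 KO R848. Summed over a group and divided by the summed totals, this was a ratio of 6.59 (exact 95% interval of the counts 0.846 to 297) in WT and 14.2 (2.24 to 590) in Padi4 KO. The interval in WT includes no change, and the adjusted p was 0.0939 in WT and 5.84e-04 in Padi4 KO. The WT call was lost without the first WT Nostim library (adjusted p = 0.419), either WT R848 library (0.263 and 0.103) or the first Padi4 KO R848 library (0.102). After R848 the ratio of Padi4 KO to WT was 1.42 (0.567 to 4.03), so no difference was detectable at this depth. Il18, on the plus strand of chromosome 9 from 50554827 to 50581840, had 1 to 6 counts in every library, and no contrast passed the test.

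Both genes that hold IL-1 signalling back responded, in opposite directions. Il1rn, the receptor antagonist, lies on the plus strand of chromosome 2 from 24336853 to 24351494. It had 238 and 223 CPM in WT Nostim, 129 and 140 CPM in Padi4 KO Nostim, 1881 and 1450 CPM in WT R848 and 1240 and 1114 CPM in Padi4 KO R848. The 4 groups did not overlap, and Padi4 KO was the lower genotype in both conditions. R848 raised Il1rn 7.19-fold in WT (log2 2.85, SE 0.10, adjusted p = 1.53e-175) and 8.69-fold in Padi4 KO (log2 3.12, SE 0.096, adjusted p = 1.42e-226). Padi4 KO was below WT by log2 -0.77 (SE 0.13, adjusted p = 6.95e-08) without stimulation and by log2 -0.50 (SE 0.076, adjusted p = 3.92e-09) after R848. Relative to the summed neutrophil markers of the same library, these differences were -0.18 and 0.081. The responses of Il1rn differed by 0.27 (SE 0.15, adjusted p = 0.426).

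Il1r2, the decoy receptor, lies on the plus strand of chromosome 1 from 40074079 to 40125231. It had 369 and 383 CPM in WT Nostim, 182 and 184 CPM in Padi4 KO Nostim, 122 and 72.6 CPM in WT R848 and 30.2 and 31.2 CPM in Padi4 KO R848. Again no 2 groups overlapped, and the lowest values were in stimulated Padi4 KO cells. Il1r2 fell 3.92-fold with R848 in WT (log2 -1.97, SE 0.15, adjusted p = 4.11e-36) and 5.93-fold in Padi4 KO (log2 -2.57, SE 0.17, adjusted p = 4.57e-50). Padi4 KO was 2.06-fold below WT without stimulation (log2 -1.04, SE 0.11, adjusted p = 2.71e-17) and 3.11-fold below WT after R848 (log2 -1.64, SE 0.23, adjusted p = 4.94e-11). The difference of the responses was -0.60 (SE 0.25, adjusted p = 0.225). Without the second WT R848 library, which was the lower of its pair at 72.6 CPM, it was -1.18 (adjusted p = 0.0026).

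Il1rap, the accessory chain of the receptor, lies on the plus strand of chromosome 16 from 26581704 to 26730117. It had 46 and 26 counts in WT Nostim, 30 and 39 in Padi4 KO Nostim, 25 and 19 in WT R848 and 26 and 21 in Padi4 KO R848. In CPM, both Padi4 KO libraries lay below both WT libraries in each condition. Its log2 change with R848 was -0.49 (SE 0.28) in WT and -0.52 (SE 0.28) in Padi4 KO, and neither passed the test (adjusted p = 0.209 and 0.151). Padi4 KO was lower than WT by log2 -0.94 (SE 0.25, adjusted p = 0.00188) without stimulation and by log2 -0.97 (SE 0.31, adjusted p = 0.0178) after R848. The first call was lost without the first WT Nostim library (log2 -0.55) and the second without the first WT R848 library (log2 -0.80). Both calls were also lost with DESeq2 (log2 -0.86 and -1.08).

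Of the inflammasome genes, the sensor and the lipopolysaccharide-responsive caspase rose with R848, the adaptor fell and caspase-1 showed no call. Nlrp3, on the plus strand of chromosome 11 from 59541568 to 59566956, had 128 and 86.3 CPM in WT Nostim, 90.4 and 74.0 CPM in Padi4 KO Nostim, 495 and 508 CPM in WT R848 and 270 and 308 CPM in Padi4 KO R848. The genotypes overlapped without stimulation and were apart after R848. Nlrp3 rose 4.63-fold in WT (log2 2.21, SE 0.14, adjusted p = 1.53e-55) and 3.57-fold in Padi4 KO (log2 1.84, SE 0.13, adjusted p = 4.90e-46). Padi4 KO was 1.74-fold below WT after R848 (log2 -0.80, SE 0.10, adjusted p = 1.78e-12). Without stimulation the difference was log2 -0.42 (SE 0.17, adjusted p = 0.0681), and it missed the threshold when any of 6 of the 8 libraries was left out (log2 -0.30 to -0.097) or with another scaling.

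Casp4, which encodes caspase-11, lies on the plus strand of chromosome 9 from 5308828 to 5336783. It had 24.7 and 19.0 CPM in WT Nostim, 24.9 and 27.6 CPM in Padi4 KO Nostim, 139 and 117 CPM in WT R848 and 87.1 and 80.9 CPM in Padi4 KO R848. The genotypes were close at rest, and both stimulated Padi4 KO libraries lay below both stimulated WT libraries. Casp4 rose 5.74-fold in WT (log2 2.52, SE 0.27, adjusted p = 6.67e-20) and 3.16-fold in Padi4 KO (log2 1.66, SE 0.21, adjusted p = 1.17e-14). After R848 Padi4 KO was 1.51-fold below WT (log2 -0.60, SE 0.17, adjusted p = 0.00704), a call that was lost with DESeq2 and with library size as the only scaling. The responses differed by -0.86 (SE 0.37, adjusted p = 0.232).

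Casp1, which encodes the caspase that cuts the IL-1β and IL-18 precursors, is the neighbor of Casp4 on chromosome 9, from 5298517 to 5307265. It had 61.8 and 32.8 CPM in WT Nostim, 40.7 and 45.7 CPM in Padi4 KO Nostim, 50.9 and 42.5 CPM in WT R848 and 26.7 and 42.3 CPM in Padi4 KO R848. The groups overlapped, apart from WT R848 and Padi4 KO R848, whose nearest libraries differed by little. Its log2 change with R848 was -0.051 (SE 0.28) in WT and -0.35 (SE 0.23) in Padi4 KO, and no contrast of Casp1 passed the test with all 8 libraries. Without the second Padi4 KO R848 library, Padi4 KO against WT after R848 went from log2 -0.43 to -0.89 and passed (adjusted p = 0.0643). At rest Casp4 had 0.489 ± 0.127 counts per count of Casp1 in WT, and after R848 it had 2.74 ± 0.0212 (SD, n = 2). In Padi4 KO the ratio was 0.607 ± 0.00561 at rest and 2.59 ± 0.957 after R848 (SD, n = 2).

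Pycard, the gene of the adaptor ASC, lies on the minus strand of chromosome 7 from 127989708 to 127993867. It had 41.7 and 41.4 CPM in WT Nostim, 61.1 and 48.6 CPM in Padi4 KO Nostim, 10.2 and 14.2 CPM in WT R848 and 24.9 and 17.5 CPM in Padi4 KO R848. The stimulated libraries lay below the unstimulated ones in both genotypes, and Padi4 KO was the higher genotype in each condition. Pycard fell 3.35-fold with R848 in WT (log2 -1.74, SE 0.41, adjusted p = 1.71e-04) and 2.51-fold in Padi4 KO (log2 -1.33, SE 0.24, adjusted p = 3.96e-07). Padi4 KO against WT was log2 0.36 (SE 0.24, adjusted p = 0.335) without stimulation and log2 0.78 (SE 0.43, adjusted p = 0.270) after R848. The WT value after R848 rests on 5 and 8 counts. The count of Nlrp3 per count of Pycard went from 2.58 ± 0.70 to 42.2 ± 9.0 in WT, whereas in Padi4 KO it was 1.5 ± 0.0289 at rest and 14.2 ± 4.79 after R848 (SD, n = 2 in each group).

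**Figure D2:**
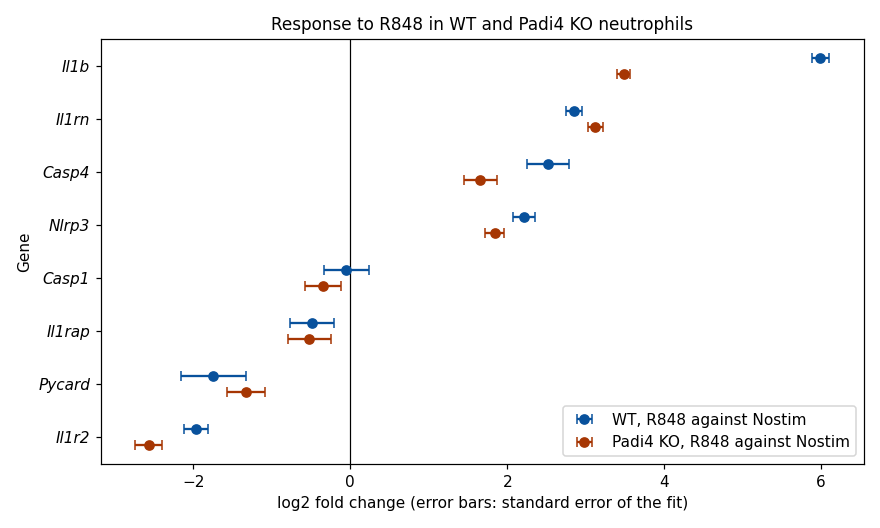
Log2 fold change of R848 against Nostim for the 8 genes with over 10 counts on average, in WT (blue) and Padi4 KO (orange), with bars for the standard error of the fit. Il1b, at 5.99 in WT and 3.48 in Padi4 KO, is the gene whose points are farthest apart.

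Counted over the 10 genes, 7 passed a false discovery rate of 0.1 with a change of more than 2-fold after R848 in WT, 5 higher and 2 lower, where 18.0% of all tested genes did so (7.17% higher and 10.8% lower). In Padi4 KO the same 7 genes passed, in the same directions, Il1a being the call on the fewest counts, where 16.9% of all tested genes did so (8.07% higher and 8.84% lower). Over the 10 genes the log2 changes had a median of 1.08 in WT and of 1.04 in Padi4 KO, beside -0.17 and -0.031 over all tested genes. In the difference of the responses 1 of the 10 passed at a false discovery rate of 0.1, which was Il1b, where 4.71% of all tested genes passed (3.45% higher and 1.26% lower). The responses and the genotype comparisons share libraries, so their counts are not independent.

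Between the genotypes, 5 of the 10 genes passed a false discovery rate of 0.1 without stimulation, Il1b being higher in Padi4 KO and Il1rn, Il1r2, Il1rap and Nlrp3 lower, where 23.9% of all tested genes passed (9.55% higher and 14.4% lower). After R848, 6 were lower in Padi4 KO (Il1b, Il1rn, Il1r2, Il1rap, Nlrp3 and Casp4) and 0 were higher, where 17.3% of all tested genes passed (9.46% higher and 7.81% lower). The median log2 difference of the 10 genes was -0.57 without stimulation and -0.55 after R848, beside -0.034 and 0.083 over all tested genes. The direction of the genotype calls over all genes depends on the scaling. With library size alone, 77.2% of the genes called without stimulation and 81.8% of those called after R848 were higher in Padi4 KO, against 39.9% and 54.8% with the scaling used here. The median of 6912 genes with a mean of at least 10 counts moved from -0.16 to 0.12 and from -0.0019 to 0.21. The 5 and 6 members called kept their direction under library size alone, relative log expression factors and DESeq2.

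The neutrophil markers themselves were lower in Padi4 KO, 10 of 11 without stimulation and 9 of 11 after R848. Over all tested genes, 14.4% and 7.81% were lower. The members were set against the summed marker counts of the same library, a ratio chosen after seeing the data and given with no test. By this ratio Il1b was log2 2.31 higher in Padi4 KO without stimulation and log2 -0.23 after R848. On that scale Il1r2 differed by -0.44 and -1.05 and Il1rap by -0.27 and -0.40. Il1rn differed by -0.18 without stimulation and by 0.081 after R848, and Nlrp3 by 0.23 and -0.23. The values for Il1rn after R848 and for Nlrp3 at rest thus lay on the other side of 0. Casp4 was at 0.87 without stimulation and at -0.029 after R848, and Pycard at 0.99 and 1.37. Casp1, which passed in neither comparison, went to 0.54 and 0.10. The pooled SD of these log2 ratios ranged from 0.069 for Il1b to 0.39 for Casp1.

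**Figure D3:**
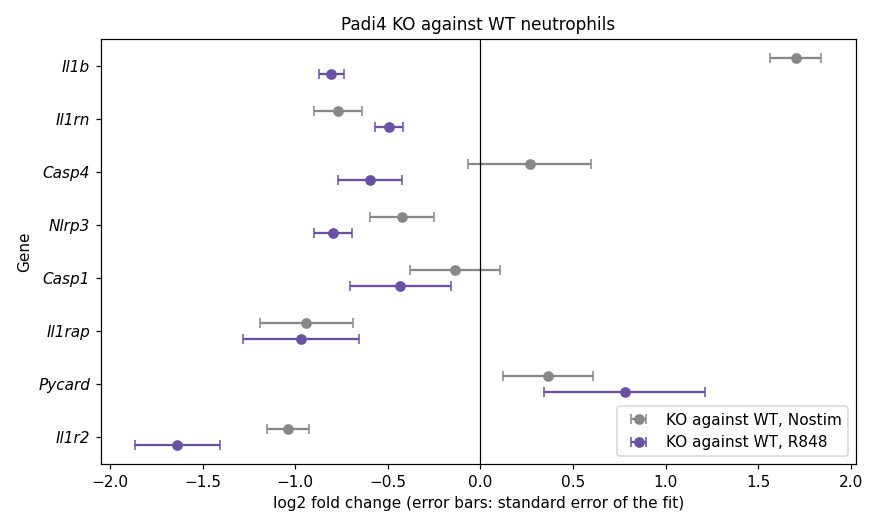
Log2 difference of Padi4 KO minus WT for the same 8 genes, without stimulation and after R848, with bars for the standard error of the fit. Il1b goes from 1.70 to -0.80, and Il1r2 stays below 0, at -1.04 and -1.64.

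Ratios of counts of a pair of genes within a library need no scaling between libraries. The ratio of Il1b to its antagonist Il1rn was 0.357 ± 0.00968 (SD, n = 2) in WT Nostim and 3.17 ± 0.214 (SD, n = 2) in WT R848. In Padi4 KO it was 2.02 ± 0.283 (SD, n = 2) without stimulation and 2.55 ± 0.0134 (SD, n = 2) after R848. In WT the ratio thus passed from below 1 to above 1 with R848, whereas in Padi4 KO it was above 1 already at rest. Il1rn has 5.54 kb of annotated exon and Il1b 1.91 kb, so the ratio can be compared between libraries and is not a ratio of transcript amounts. On the log2 scale the ratio rose by 3.15 in WT and by 0.35 in Padi4 KO, a difference of -2.80, with a pooled SD of 0.11 within groups. The ratio is given as a value per library, with no test. The ratio of Il1b to Il1r2 went from 0.219 ± 0.0101 to 56.5 ± 14.1 in WT and, in Padi4 KO, from 1.48 ± 0.130 to 97.9 ± 9.25 (SD, n = 2 each), and the ratio of Il1rn to Il1r2 from 0.613 to 17.7 and from 0.735 to 38.4.

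**Figure D4:**
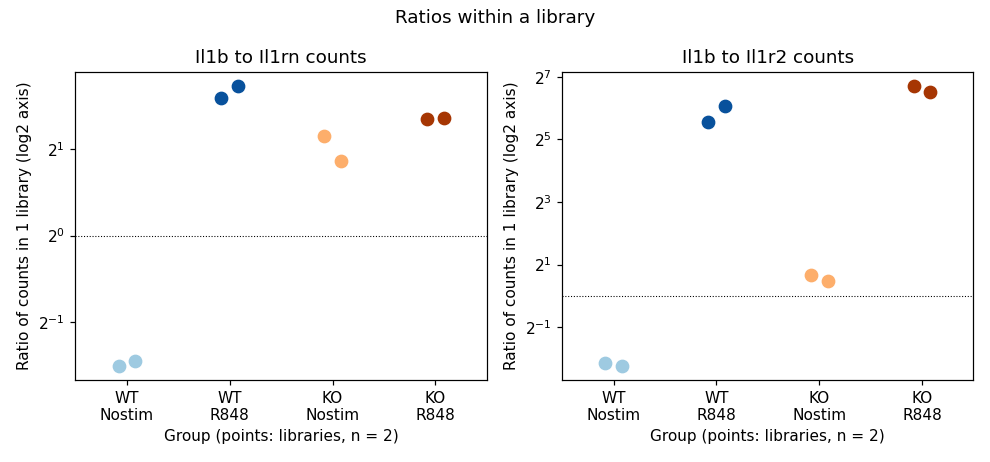
Ratio of the counts of Il1b to those of Il1rn (left) and of Il1r2 (right) in each library, on a log2 axis, with 2 libraries per group. The ratio to Il1rn is below 1 in WT Nostim and above 1 in the other 3 groups, and the ratio to Il1r2 is highest in Padi4 KO R848.

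Per kilobase of annotated exon, which allows genes to be compared, Il1r2 had the highest level of the 10 genes in WT Nostim, at 197 CPM per kb ± 5.11 (SD, n = 2). Il1b (43.2 ± 0.866) and Il1rn (41.6 ± 1.96) followed in WT Nostim and did not differ beyond their spread, and Casp1 (31.6 ± 13.7) and Nlrp3 (26.5 ± 7.32) overlapped each other. In Padi4 KO Nostim, Il1b was first at 142 CPM per kb ± 11.6 and Il1r2 the second at 95.8 ± 0.578. After R848 the order in both genotypes was Il1b, Il1rn, Nlrp3, with 2755 ± 321, 301 ± 55.1 and 124 ± 2.25 CPM per kb in WT and 1576 ± 111, 213 ± 16.1 and 71.2 ± 6.59 CPM per kb in Padi4 KO. Behind them in WT R848, Il1r2 (51.1 ± 18.4), Casp4 (34.4 ± 4.14) and Casp1 (31.2 ± 4.00) were within their spread of their neighbors. In Padi4 KO R848, Casp1 (23.0 ± 7.38), Casp4 (22.6 ± 1.18) and Il1r2 (16.1 ± 0.386) followed. Il1a, Il18, Il1rap and Pycard were below 15 CPM per kb in all 4 groups. The lengths are those of all annotated exons together, and genes with long or rare isoforms come out low on this scale.

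The genes whose log2 CPM ran closest to that of Il1b over the 8 libraries, out of 2918 genes with a mean of at least 50 counts, were Irg1, Irf5, Bcl3, Ifitm2 and Zfp36l1, with Pearson r from 0.995 to 0.999. These correlations rest on 8 libraries of 4 groups and mostly describe the change with R848. Irg1, which encodes the enzyme that makes itaconate, had 4 and 4 counts in WT Nostim, 35 and 51 in Padi4 KO Nostim, 1642 and 1387 in WT R848 and 1611 and 1514 in Padi4 KO R848. Its log2 difference of Padi4 KO minus WT was 2.52 (SE 0.39) at rest and -1.04 (SE 0.072) after R848, and since the gene was picked for its likeness to Il1b, these values are no independent support. The genes closest to Il1rn were Rnf19b, Pcyt1a, Cyfip1, Msn and Ppp1cb, with r of 0.998 in each case. Rnf19b, an E3 ubiquitin ligase gene, was at log2 -0.38 (SE 0.16) in Padi4 KO against WT at rest and at -0.22 (SE 0.10) after R848.

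The other genes of the pathway were taken in lists by role. Of the other IL-1 family ligands and binding proteins, 2 of 7 in the table were tested. Il1f9, which encodes IL-36γ, rose 5.91-fold in WT (log2 2.56, SE 0.095) and 4.89-fold in Padi4 KO (log2 2.29, SE 0.085), and after R848 it was lower in Padi4 KO by log2 -0.41 (SE 0.075, adjusted p = 1.97e-06). Il18bp, the soluble binding protein of IL-18, was lower in Padi4 KO in both conditions, by log2 -0.79 (SE 0.24) and -1.27 (SE 0.32). Of 6 other receptors tested, 1 passed in each response, where 18.0% of all tested genes passed in WT and 16.9% in Padi4 KO. This was Il18r1, the ligand-binding chain of the IL-18 receptor, and it fell by 1.63 on the log2 scale in WT and by 1.34 in Padi4 KO. Its partner Il18rap was lower in Padi4 KO by log2 -0.68 (SE 0.10) without stimulation and by log2 -0.45 (SE 0.11) after R848, and Il1rl1, the IL-33 receptor gene, had 2 and 4 counts in WT Nostim and 10 and 22 counts in Padi4 KO Nostim (adjusted p = 0.0557).

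Of 20 other inflammasome sensors and regulators tested, 7 rose and 3 fell with R848 in WT, and 5 rose and 4 fell in Padi4 KO. Over all tested genes, the shares were 7.17% higher and 10.8% lower in WT and 8.07% higher and 8.84% lower in Padi4 KO. Mefv, the gene of the sensor pyrin, rose by log2 3.41 (SE 0.16) in WT and 3.0 (SE 0.13) in Padi4 KO. Txnip, whose product binds thioredoxin and has been linked to NLRP3, rose by log2 1.03 (SE 0.087) in WT and changed by 0.63 (SE 0.084) in Padi4 KO, short of 2-fold. Its responses differed by -0.40 (SE 0.12, adjusted p = 0.0360), 1 called difference among the 20 genes, where 4.71% of all tested genes had one. Card9, an adaptor of C-type lectin receptors, fell 2.23-fold in WT, and in Padi4 KO it was 1.84-fold lower, short of the fold threshold. In Padi4 KO against WT, 3 of the 20 were lower without stimulation (Naip2, Naip5 and Txnip) and 2 after R848 (Mefv and Txnip), and 0 were higher in either condition. Of all tested genes, 14.4% were lower without stimulation and 7.81% after R848, and 9.55% and 9.46% were higher. The counts of lower genes in the list were thus close to the background.

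Of 12 genes of pyroptosis and membrane repair tested, 1 rose past the threshold with R848 in each genotype. This was Ninj1, which encodes a protein of plasma membrane rupture. It rose 7.30-fold in WT (log2 2.87, SE 0.15) and 12.5-fold in Padi4 KO (log2 3.64, SE 0.13), and the difference of 0.77 (SE 0.24, adjusted p = 0.0451) ran against that of Il1b. In this list 3 of the 12 genes had a called higher response in Padi4 KO and 0 a lower one, where 3.45% and 1.26% of all tested genes did. With the scaling used here, the median difference over 6912 genes was itself 0.18. Gsdmd, the gene of the pore-forming gasdermin D, was at log2 0.049 (SE 0.16) in WT and 0.31 (SE 0.13) in Padi4 KO after R848, and it was lower in Padi4 KO at rest by log2 -0.44 (SE 0.15, adjusted p = 0.0187). Altogether 7 of the 12 were lower in Padi4 KO without stimulation and 2 after R848, with 0 higher. Of all tested genes, 14.4% and 7.81% were lower and 9.55% and 9.46% were higher. The direction of such calls over all genes turned with library size alone, as given above.

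Downstream of the receptor, 2 of 15 genes of IL-1 receptor signalling passed the response threshold in each genotype, and both rose, where 7.17% of all tested genes were higher in WT and 8.07% in Padi4 KO. Irak3, a kinase-like brake on this pathway, rose by log2 4.05 (SE 0.12) in WT and 4.17 (SE 0.11) in Padi4 KO. Irak2, a kinase of the same family that carries the signal on, rose by log2 3.46 (SE 0.17) in WT and 2.67 (SE 0.15) in Padi4 KO, with a called difference of -0.79 (SE 0.27, adjusted p = 0.0731). Myd88, the adaptor of both the IL-1 receptor and TLR7, changed by log2 0.86 (SE 0.14) and 0.95 (SE 0.11), short of 2-fold. In Padi4 KO, 3 of the 15 were lower without stimulation (Peli1, Peli2 and Tab2) and 3 after R848 (Irak2, Irak3 and Peli2), where 14.4% and 7.81% of all tested genes were lower.

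Among 6 tested genes of neutrophil proteases that can process IL-1 cytokines, with their serpin inhibitor, 5 were lower and 1 was higher in Padi4 KO in each condition. Over all tested genes, 14.4% were lower and 9.55% higher without stimulation, and 7.81% lower and 9.46% higher after R848. The neutrophil markers were also mostly lower in Padi4 KO, 10 of 11 without stimulation and 9 of 11 after R848. Whether the genes of this list were lower beyond those markers was not tested. Elane, the gene of neutrophil elastase, was lower by log2 -0.84 (SE 0.12) without stimulation and -1.19 (SE 0.20) after R848, and Prtn3, the gene of proteinase 3, by log2 -0.50 (SE 0.12) and -1.18 (SE 0.20). Serpinb1a, an inhibitor of these proteases, was lower by log2 -0.68 (SE 0.090) and -0.65 (SE 0.11), and Mmp9, also among the neutrophil markers, by log2 -0.52 (SE 0.063) and -0.24 (SE 0.063). Ctsc, the gene of cathepsin C, which activates neutrophil serine proteases, was the exception, at log2 1.59 (SE 0.21) and 0.70 (SE 0.18), and was named after its values were seen. Elane and Prtn3 transcripts are made mainly in immature neutrophils, and they fell with R848 in both genotypes.

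**Figure D5:**
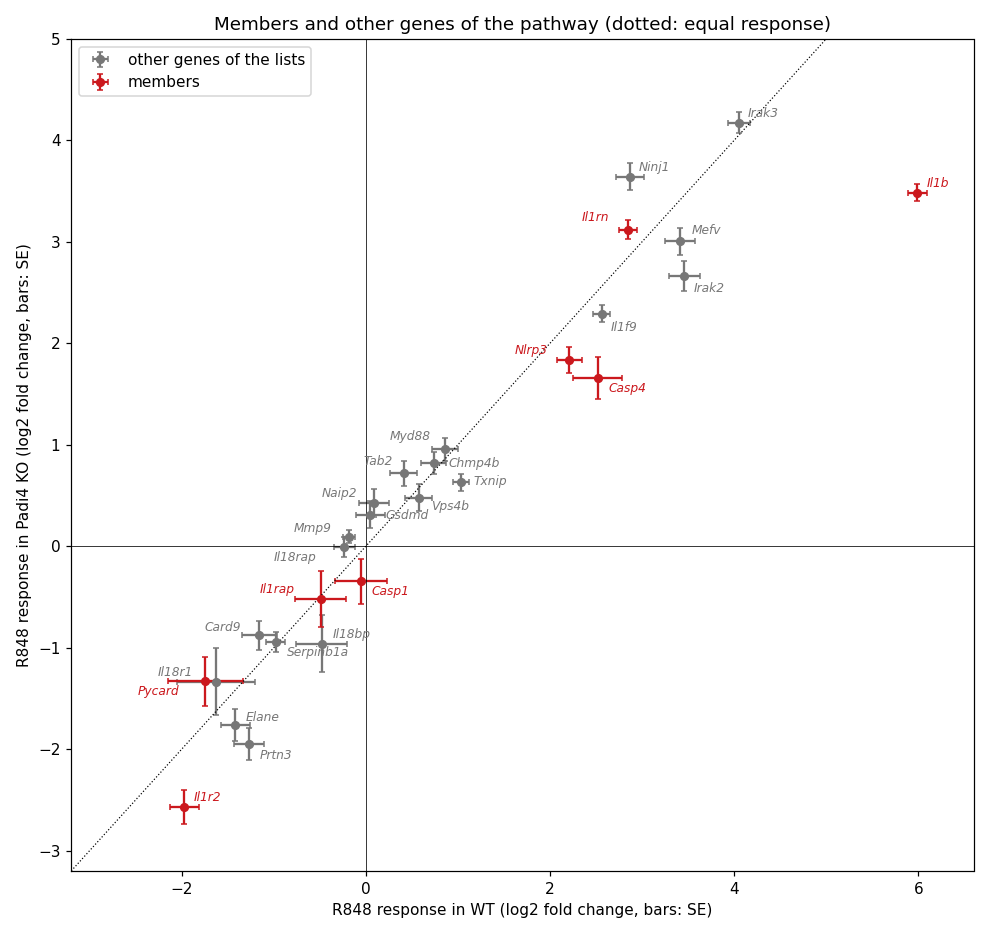
Log2 response to R848 in Padi4 KO (vertical) against that in WT (horizontal) for 8 of the 10 genes (red) and other genes of the lists (gray), with bars for the standard errors and a dotted line for equal responses. Il1b lies below the line, at 5.99 and 3.48, and Ninj1 above it, at 2.87 and 3.64.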

How the data were processed

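RNA was sequenced from WT and Padi4 KO bone marrow neutrophils, with 2 libraries in each of 4 groups taken from the sample labels. Per the submitters' processing notes, the authors checked reads with FastQC 0.11.7, trimmed them with cutadapt 1.16, mapped them to mm10 with STAR 2.5.3a and counted them on genes with HTSeq 0.6.1p1. The deposited values are raw counts per gene symbol, without normalization. Which annotation and strand option HTSeq used is not given in the sources used here, and the library kit does not mark strand. Between 87.0% and 89.5% of the reads in the table lay on genes, and the other HTSeq lines were left out.

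A single fit in edgeR 4.0.16 (R 4.3.3, limma 3.58.1) covered the 12254 genes with at least 1 count in at least 2 libraries, with TMM factors, 1 mean per group and the robust quasi-likelihood test. The Benjamini-Hochberg adjustment ran over all genes tested. A response needed a false discovery rate under 0.1 and over 2-fold change, and any other contrast a false discovery rate under 0.1. CPM values use the TMM factors, except sums of markers and floors, which use library totals. Standard errors are the log2 fold change over the square root of F. A gene with under 10 counts per library was described by its counts. DESeq2 1.42.0 and the other alternatives are given in the closing section. The model was also run on simulated counts with 200 changed genes and the same spread for every gene. That setting is simpler than these data, and its outcome is not used here. A few genes of the lists are not reported here by name.

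The 10 genes and all lists were chosen with earlier results of these data known. Named genes were the 10 members, up to 4 genes of each other list with the highest mean count, and the 5 genes most like Il1b and Il1rn; other names count calls of the lists. Replicate numbers come from the labels. Deviations from the group means of libraries with the same number had correlations between -0.0057 and 0.036, so the numbers were not taken to pair the libraries. Duplicate libraries differed beyond counting noise (chi-square per degree of freedom 1.05 to 1.67), so none was counted as a repeat of another. Positions are those of GENCODE M21 on GRCm38, the build of mm10, and promoter sequences those of RefSeq on GRCm38.p6. Figures were drawn with Python 3.11.15 and matplotlib 3.10.9.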

Additional observations from a re-analysis of the deposited data

Results flagged for a closer look

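The response of Il1b to R848 differed between the genotypes by log2 -2.51 (Padi4 KO minus WT, SE 0.15, adjusted p = 4.02e-57 by edgeR's quasi-likelihood test), and this was the only one of the 10 genes for which the test of the difference itself passed. Both Padi4 KO libraries were above both WT libraries without stimulation and below them after R848. With 2 libraries per group, a pair that differs cannot show which of its libraries stands apart.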

How the results depend on the processing

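The alternatives were DESeq2, relative log expression factors, library size alone, edgeR's filterByExpr filter, no filter, counts thinned to the smallest library, the replicate number as a block, a false discovery rate of 0.05, no fold threshold, separate models per genotype, and each library left out. No fold threshold and separate models apply to the responses to R848 alone. Il1b kept its calls and directions in every alternative run for a contrast, with a difference of response of -2.85 to -2.44 when libraries were left out. The number of members called without stimulation, 5, was 3 with DESeq2 and 3 to 5 when libraries were left out, with 3 without the first WT Nostim library, where Il1rap and Nlrp3 missed the threshold. The number with a called difference of response, 1, was 2 with relative log expression factors, where Il1r2 passed at -0.75, and 1 to 3 when libraries were left out. It was 3 without the second WT R848 library (Il1r2 -1.18 and Casp4 -1.22 also passed), and 2 without the first WT R848 or the second Padi4 KO R848 library (Nlrp3 -0.66 and -0.70). The log2 difference of response of the Il1b to Il1rn ratio ranged from -2.95 to -2.66, its ends being without the second and without the first Padi4 KO Nostim library. The number of members called was 6 to 7 for the WT response, 7 to 7 for the Padi4 KO response and 5 to 7 after R848 when libraries were left out, with 7 without the second Padi4 KO R848 library, where Casp1 also passed (-0.89). The number of members called after R848, 6, was 4 with DESeq2, which tested 8 of them, and 5 with library size alone. Il1a in WT missed the threshold under DESeq2, library size alone, no filter, thinned counts, the replicate block and a false discovery rate of 0.05. With the replicate block 6 members were called in the WT response in place of 7, and it changed no other count of members. Nlrp3 without stimulation missed it under DESeq2, relative log expression factors, library size alone, thinned counts and a false discovery rate of 0.05. Il1rap missed it with DESeq2 in both genotype comparisons, and Casp4 after R848 with DESeq2 (-0.70) and library size alone (-0.38). Pycard without stimulation passed with library size alone (0.65) and thinned counts (0.74). The values that changed sign belonged to contrasts not called. Casp1 in the WT response was 0.041 (DESeq2), 0.022 (relative log expression factors), 0.021 with thinned counts and 0.074 with separate models, and Casp1 without stimulation was 0.15 with library size alone. With thinned counts the difference of response was -0.039 for Il1rn and -0.076 for Pycard. When libraries were left out, Casp1 ranged from -0.41 to 0.50 in the WT response and from -0.50 to 0.41 without stimulation, and Il1a after R848 from -0.37 to 0.58. The difference of response ranged from -0.14 to 0.34 for Il1rn, -0.55 to 0.25 for Il1rap, -0.11 to 0.54 for Pycard and -0.89 to 0.066 for Casp1. Relative to the summed neutrophil markers, an alternative added after seeing the data, Nlrp3 without stimulation was 0.23 and Il1rn after R848 was 0.081, both called with the opposite sign in the edgeR fit. Of the planned comparisons of single genes, 348 of 373 with an alternative and 311 of 344 with a library left out kept direction and side of the threshold. The others include the planned ones named above, and their cause was not tested. The share of called genes that were higher also moved with the scaling. In the WT response it was 39.8%, against 53.0% with DESeq2 and 23.0% with library size alone, and in the Padi4 KO response 47.7% against 23.1% with library size alone. After R848 it was 54.8%, against 38.4% (DESeq2) and 42.1% (relative log expression factors). For the difference of response it was 73.3%, against 28% (DESeq2), 40.7% (relative log expression factors) and 60% with library size alone. Depth limits Il1a and Il18, with at most 12 and 6 counts per library.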

Other observations

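Dfna5, a gene of the pyroptosis list named after its values were seen, had a called difference of response in the direction of Ninj1 and against that of Il1b. Of all tested genes, 3.45% had a called higher difference. Higher ones made up 73.3% of called differences with the scaling used here, against 28% with DESeq2 and 40.7% with relative log expression factors. Values of Dfna5 and Ninj1 under those alternatives are not given here. Dfna5 encodes gasdermin E, a pore-forming protein. It had 106 and 86 counts in WT Nostim, 80 and 83 in WT R848, 92 and 139 in Padi4 KO Nostim and 201 and 175 in Padi4 KO R848. It changed with R848 by log2 -0.019 (SE 0.16) in WT and 0.73 (SE 0.13) in Padi4 KO, a difference of 0.75 (SE 0.21, adjusted p = 0.0184, edgeR's quasi-likelihood test). Without stimulation Dfna5 was lower in Padi4 KO by log2 -0.62 (SE 0.15), and after R848 it was at 0.14 (SE 0.15).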
